A study of Danio rerio with 9 samples.

Results

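Cathepsins are the main proteases of the lysosome, and the 9 cathepsin genes described here were followed in whole zebrafish embryos of 3 genotypes: ctsb, ctsa, ctsc, ctsd, ctsf, ctsh, ctsk, ctsla and ctsz, of 32520 genes counted in all. The set was chosen by the counts of cathepsin B (ENSDARG00000055120) in the kdm4aa knockout against the other genotypes, and its other genes were added by family name. The fall of cathepsin B in that knockout is therefore a description here and carries no test. The embryos were a kdm4aa knockout, a kdm4ab knockout and wild type, with 3 libraries each of poly-A RNA. kdm4aa and kdm4ab encode histone demethylases of the KDM4 family, and the study looked for genes downstream of kdm4aa in knockout embryos that developed late and showed more cell death. No source used here gives the kind of mutation, the age of the embryos, the background strain or the clutches. P-values therefore weigh the spread among the libraries at hand, and that spread may be technical.

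Cathepsins are made as inactive precursors that are carried to the lysosome and activated at its low pH. Most of those listed here (B, C, F, H, K, L and Z) are cysteine proteases of the papain family, cathepsin D is an aspartic protease and cathepsin A is a serine carboxypeptidase. Cathepsins B and L are broadly expressed and overlap in the proteins they degrade. In the embryo of fish, lysosomal proteases also take part in breaking down yolk proteins.

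Library totals ran from 27894551 to 46156237 counts, and levels are rates of counts (CPM) of a library scaled by the trimmed mean of M values. The library of kdm4ab knockout replicate 2 stood apart: 14247 genes had a count in it, against 22025 to 23019 in the other 8, and across genes its log2(CPM + 1) correlated with replicates 1 and 3 at 0.888 and 0.875, against 0.995 to 0.996 for every other pair within a group. All groups share 1 estimate of the spread, which was a biological coefficient of variation of 47.5% with that library and 13.1% without it, so the members' results are given with all 9 libraries and, where the call differs, also with the 8 others. The kdm4ab transcript was at 2.379, 0 and 2.216 CPM in the kdm4ab knockout, against 139 ± 25.5 CPM in wild type (SD, n = 3). Replicate 2 of that knockout also had 0 counts of kdm4aa, so its 0 does not check the label. For kdm4aa the mean was 16.6 ± 1.65 CPM in its own knockout against 19.1 ± 1.34 CPM in wild type (SD, n = 3 each; log2 −0.20, adjusted p 0.961, and 0.204 without kdm4ab knockout replicate 2). The kdm4aa knockout libraries lay just below those of wild type, at 14.7 to 17.9 against 18.1 to 20.6 CPM. A difference this small and not called leaves the label of that knockout unchecked by its RNA. Tests are edgeR's quasi-likelihood F-test with Benjamini-Hochberg adjustment over the 18998 genes tested, a gene is called at an adjusted p under 0.05, and all 9 cathepsins were among the genes tested.

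Cathepsin B RNA was all but missing from the kdm4aa knockout and abundant in both other genotypes. The 3 kdm4aa knockout libraries held 5, 8 and 6 counts of ctsb, which is 0.145, 0.240 and 0.145 CPM. The kdm4ab knockout libraries held 49769, 43137 and 38964 counts, or 1003, 1450 and 949 CPM. Wild type held 40630, 42342 and 47708 counts, or 1035, 1095 and 1057 CPM. No kdm4aa knockout library came near any of the other 6, and the highest of the kdm4ab knockout was replicate 2, the library that stood apart.

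Taken as a ratio of summed counts per scaled library, ctsb was 6108-fold lower in the kdm4aa knockout than in wild type (19 against 130680 counts, exact 95% interval 3911 to 10146), and 6299-fold lower than in the kdm4ab knockout (19 against 131870 counts, 4033 to 10462). These intervals come from counts pooled over libraries, so they cover counting error only and leave out the spread between libraries. The gene was chosen for this fall, so the intervals describe its size and are no test of it. The labels name no molecular identifiers. The fitted log2 difference of the kdm4aa knockout was −12.54 from wild type and −12.64 from the kdm4ab knockout. In whole embryos, fewer cells of a type and less RNA per cell cannot be told apart. Between the kdm4ab knockout and wild type, ctsb showed a log2 difference of 0.09 (SE 0.195, adjusted p 0.778), and of −0.12 (adjusted p 0.227) without kdm4ab knockout replicate 2. The counts of both these groups also entered the choice of the gene, so their likeness is a description too.

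The size of this loss can be set beside the other abundant genes, as a description only, since ctsb was chosen for its fall. Of 244 genes that averaged 500 CPM or more in wild type, 1 was at or below 1% of its wild-type level in the kdm4aa knockout, and it was ctsb. In the kdm4ab knockout 0 of the 244 were that low. With the level lowered to at least 50 CPM in wild type, 2 of 4725 genes were that low in the kdm4aa knockout and 3 in the kdm4ab knockout. The second gene in the kdm4aa knockout was si:ch1073-190k2.1 (ENSDARG00000097973), with a mean of 117 CPM in wild type and no count in either knockout.

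**Figure D1:**
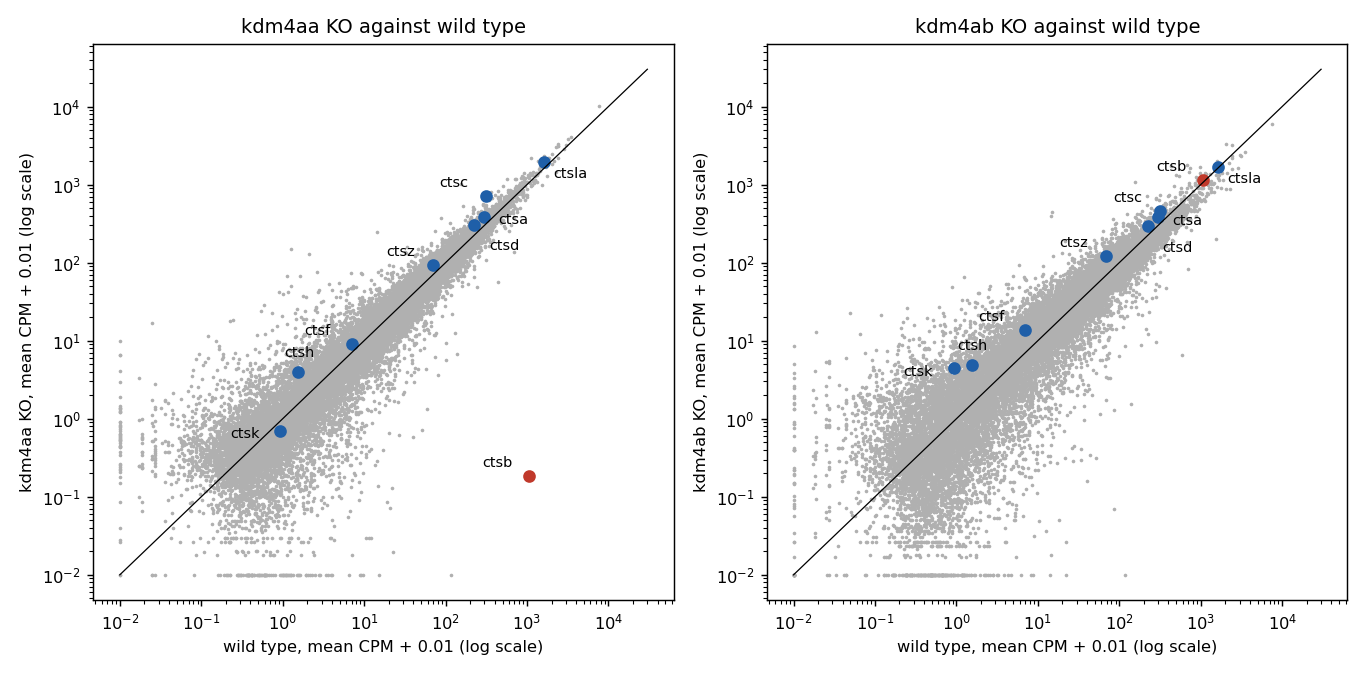
Mean level of each tested gene in the kdm4aa knockout (left) and the kdm4ab knockout (right) on the vertical axis against its mean level in wild type on the horizontal axis, both as CPM + 0.01 on log scales, with n = 3 libraries per group. Grey points are all genes tested, blue points the other 8 cathepsins and the red point ctsb, which lies far below the line of equal levels at 0.176 CPM in the left panel and at 1134 CPM, near the line, in the right one.

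The genes most like ctsb over the 9 libraries, out of 12303 genes that averaged 5 CPM or more in 1 group, were si:dkey-65b12.12, mslna, MYOM2, si:dkey-23a23.2 and CLDN11. Pearson's r on log2(CPM + 0.5) was 0.9988, 0.9976, 0.9974, 0.9965 and 0.9958, and rests on the contrast of the 3 kdm4aa knockout libraries with the other 6. si:dkey-65b12.12 was at 0.0290, 0.120 and 0.0966 CPM in the kdm4aa knockout, at 7.28, 9.14 and 7.86 CPM in the kdm4ab knockout and at 8.84, 8.15 and 9.29 CPM in wild type. CLDN11, which carries the name of a tight junction claudin, kept more of its level, at 2.61, 2.79 and 3.19 CPM in the kdm4aa knockout against 20.8, 19.8 and 21.0 CPM in wild type. These genes were picked for their likeness, so their levels are a description.

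Whether other cathepsins were higher where ctsb was missing is the next comparison. Against wild type, 7 of the 8 other cathepsins had a positive log2 difference in the kdm4aa knockout and 1, ctsk, a negative one. Only ctsc was called higher, and none was called lower. The median log2 difference of the 8 was 0.39, beside −0.002 over all genes tested. Of all genes tested 8.88% were called in this contrast, 4.33% higher and 4.55% lower. Without kdm4ab knockout replicate 2, 7 of the 8 were called higher, all but ctsk, with differences of about the same size, beside 46.8% of all genes, 23.3% higher and 23.5% lower. The 3 libraries of the kdm4aa knockout lay wholly above the 3 of wild type for 6 of the 8, beside 28.7% of all genes, and for none wholly below, beside 28.9%. The members were listed with results of these data known, so these counts are a description.

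The cysteine dipeptidase ctsc, cathepsin C, trims dipeptides from protein ends and activates granule proteases in mammals. It was the only member called higher in the kdm4aa knockout with all 9 libraries, though not the one with the largest log2 difference. ctsc was at 753, 637 and 756 CPM in the kdm4aa knockout, at 490, 308 and 574 CPM in the kdm4ab knockout and at 330, 303 and 315 CPM in wild type. All 3 kdm4aa knockout libraries lay above all 6 others, and kdm4ab knockout replicate 2 lay within the range of wild type. The kdm4aa knockout stood 2.27-fold above wild type (log2 1.18, SE 0.217, adjusted p 0.0134). In the kdm4ab knockout the log2 difference was 0.53 (SE 0.214, adjusted p 0.124), and 0.76 with an adjusted p of 3.54e-06 without replicate 2. The 2 knockouts differed by 0.65 (SE 0.214, adjusted p 0.0721), and by 0.43 with an adjusted p of 0.00113 without replicate 2. The kdm4aa knockout call held in 9 of 14 alternatives, with adjusted p from 6.05e-09 to 0.074, and was lost when kdm4aa knockout replicate 1 or 3 or any one wild-type library was left out (0.0641 to 0.074).

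Cathepsin L, ctsla, an endopeptidase that shares substrates with cathepsin B, was the cathepsin with the highest counts. It was at 2118, 1814 and 1936 CPM in the kdm4aa knockout, at 1203, 2664 and 1195 CPM in the kdm4ab knockout and at 1708, 1560 and 1614 CPM in wild type. The kdm4aa knockout libraries lay above those of wild type, while kdm4ab knockout replicates 1 and 3 lay below them and replicate 2 lay above every other library. The log2 difference from wild type was 0.27 in the kdm4aa knockout (SE 0.296, adjusted p 0.711) and 0.05 in the kdm4ab knockout (SE 0.296, adjusted p 0.924). Without kdm4ab knockout replicate 2 these were 0.27 (adjusted p 0.00512) and −0.44 (adjusted p 0.000261), so that library sets the direction in the kdm4ab knockout, and the difference between the knockouts was 0.71 (adjusted p 1.59e-06) in place of 0.21 (adjusted p 0.674).

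**Figure D2:**
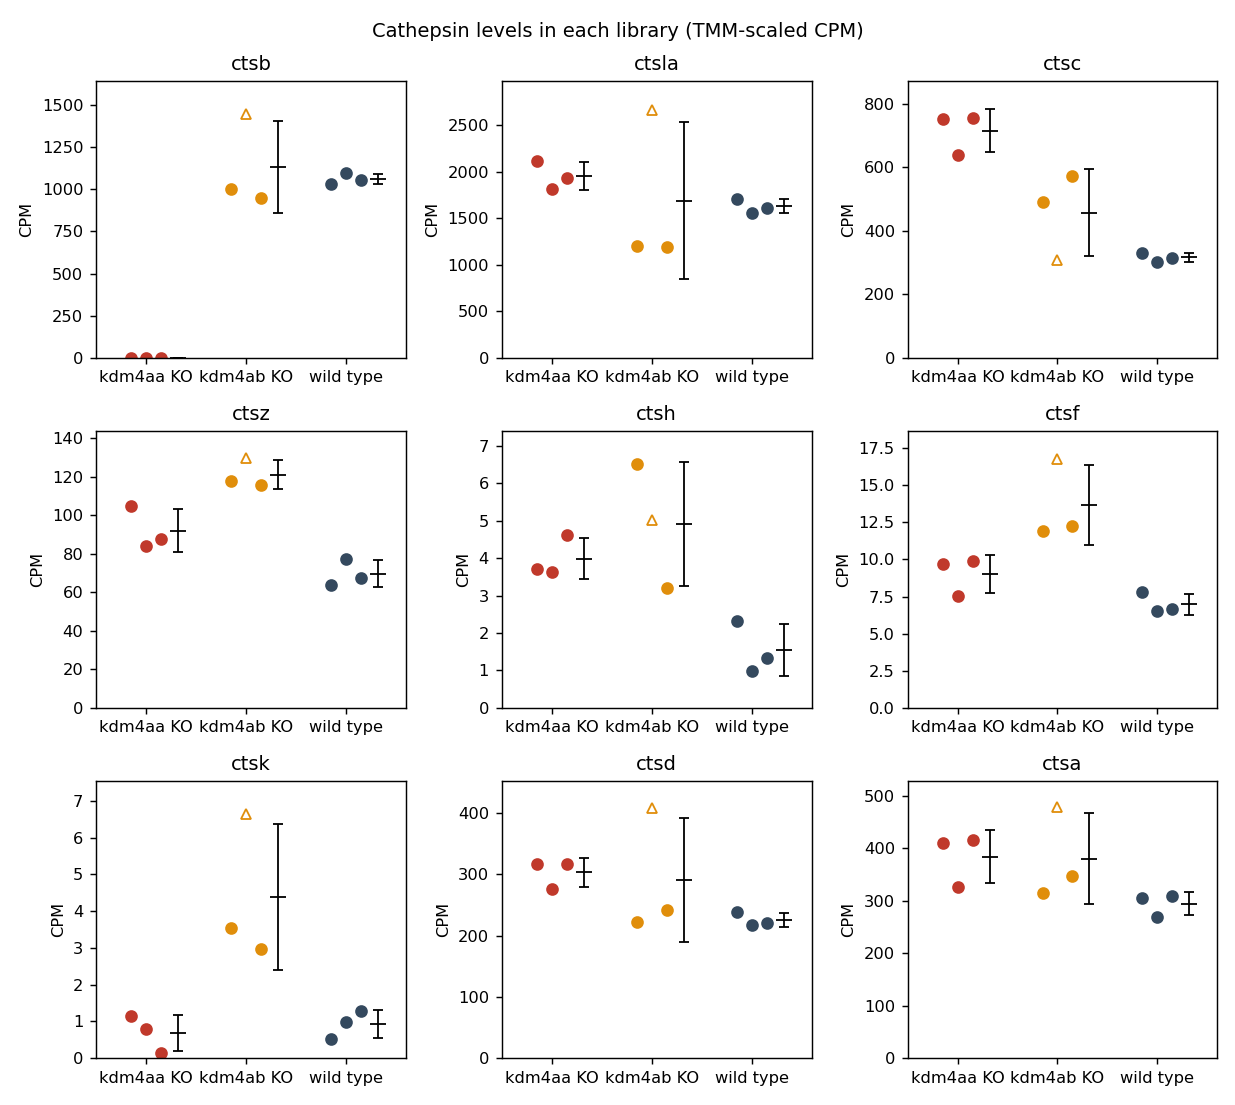
Level of each of the 9 cathepsins in every library, in CPM on a linear axis from 0, with the kdm4aa knockout left, the kdm4ab knockout in the middle and wild type right. Points are libraries, the open triangle is kdm4ab knockout replicate 2, and the bars beside them are the mean ± SD of the 3 libraries; ctsb sits at 0.145 to 0.240 CPM in the kdm4aa knockout, and ctsc at 637 to 756 CPM, above all other libraries.

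The aspartic protease ctsd and the carboxypeptidase ctsa, which also shields other lysosomal enzymes from degradation, were not called in any contrast with all 9 libraries. ctsd was at 317, 276 and 317 CPM in the kdm4aa knockout, at 223, 408 and 241 CPM in the kdm4ab knockout and at 239, 218 and 220 CPM in wild type. ctsa was at 410, 326 and 416 CPM in the kdm4aa knockout, at 316, 478 and 347 CPM in the kdm4ab knockout and at 304, 269 and 309 CPM in wild type. The kdm4aa knockout lay above wild type in every library for both genes. Its log2 difference from wild type was 0.43 for ctsd (SE 0.223, adjusted p 0.324) and 0.38 for ctsa (SE 0.183, adjusted p 0.276). Without kdm4ab knockout replicate 2 the adjusted p was 0.000248 for ctsd and 0.00257 for ctsa. Between the knockouts ctsd differed by 0.06 on the log2 scale (adjusted p 0.884), and by 0.39 with an adjusted p of 0.00154 without that library.

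Cathepsins Z and F were higher in the kdm4ab knockout. ctsz, a carboxypeptidase, was at 105, 83.9 and 87.4 CPM in the kdm4aa knockout, at 118, 130 and 116 CPM in the kdm4ab knockout and at 63.9, 77.4 and 67.5 CPM in wild type. The groups fell in the order kdm4ab knockout, kdm4aa knockout and wild type with no overlap. ctsz rose in the kdm4ab knockout (log2 0.80, SE 0.142, adjusted p 0.00758), a call that all 14 alternatives kept. In the kdm4aa knockout its log2 difference was 0.40 (SE 0.141, adjusted p 0.132, and 0.00274 without kdm4ab knockout replicate 2), and the kdm4aa knockout stood 0.40 below the kdm4ab knockout on the log2 scale (adjusted p 0.0881), a difference that was called without kdm4ab knockout replicate 2 (log2 −0.35, adjusted p 0.0133).

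The cysteine protease ctsf was at 9.67, 7.55 and 9.88 CPM in the kdm4aa knockout, at 11.9, 16.7 and 12.3 CPM in the kdm4ab knockout and at 7.79, 6.49 and 6.67 CPM in wild type. The kdm4ab knockout lay above all other libraries, and the kdm4aa knockout overlapped wild type. It rose in the kdm4ab knockout (log2 0.96, SE 0.234, adjusted p 0.0249). Of 14 alternatives 7 kept this call, and it was lost without kdm4aa knockout replicate 1 or 3 (0.0529 and 0.052) and without any one wild-type library (0.0768 to 0.112). The log2 difference of the kdm4aa knockout was 0.37 from wild type (SE 0.232, adjusted p 0.428) and −0.59 from the kdm4ab knockout (adjusted p 0.116). Both were called without kdm4ab knockout replicate 2, at 0.38 (adjusted p 0.04997) and −0.42 (adjusted p 0.0402).

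ctsh and ctsk were the least counted members. The aminopeptidase ctsh was at 3.71, 3.63 and 4.62 CPM in the kdm4aa knockout, at 6.51, 5.01 and 3.21 CPM in the kdm4ab knockout and at 2.32, 0.983 and 1.33 CPM in wild type. Every library of both knockouts lay above every library of wild type. It rose in the kdm4ab knockout (log2 1.67, SE 0.43, adjusted p 0.0312), a call that 5 of 14 alternatives kept and that was lost without any one kdm4aa knockout library (0.0625 to 0.064), without kdm4ab knockout replicate 1 (0.0874) and without wild-type replicate 2 or 3 (0.114 and 0.132). In the kdm4aa knockout the log2 difference was 1.37 (SE 0.427, adjusted p 0.093, and 0.00158 without kdm4ab knockout replicate 2). The knockouts differed by −0.30 on the log2 scale (adjusted p 0.67).

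Cathepsin K, ctsk, known in mammals for collagen breakdown by osteoclasts, was the 1 member of the 8 with a lower mean in the kdm4aa knockout than in wild type. Its counts were 39, 26 and 6 in the kdm4aa knockout (1.13, 0.779 and 0.145 CPM), 176, 198 and 122 in the kdm4ab knockout (3.55, 6.66 and 2.97 CPM) and 20, 38 and 58 in wild type (0.509, 0.983 and 1.29 CPM). The kdm4ab knockout lay above all other libraries, while the kdm4aa knockout and wild type overlapped. ctsk was lower in the kdm4aa knockout than in the other knockout (log2 −2.68, SE 0.756, adjusted p 0.0415), but only 3 of 14 alternatives kept that call (0.0012 to 0.127), and leaving out any one library other than kdm4ab knockout replicate 2 ended it. Against wild type the log2 difference was −0.44 in the kdm4aa knockout (SE 0.724, adjusted p 0.825), turning to 0.05 without its replicate 3, and 2.24 in the kdm4ab knockout (SE 0.74, adjusted p 0.0732, and 0.00762 without its replicate 2).

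Counted over the members, 3 of 9 were called higher in the kdm4ab knockout than in wild type (ctsz, ctsf and ctsh) and none lower, beside 17.0% of all genes called, 8.97% higher and 8.04% lower. Their median log2 difference was 0.53, beside −0.029 over all genes tested. For the 8 members other than ctsb the median was 0.67, against 0.39 for the same 8 in the kdm4aa knockout. Without kdm4ab knockout replicate 2 these medians were 0.75 and 0.40. Without kdm4ab knockout replicate 2, 5 of 9 were called higher and 1 lower, ctsla, beside 49.5% of all genes, 25.3% higher and 24.2% lower. In the same contrast 5 of 9 lay wholly above wild type, beside 17.9% of all genes, and none wholly below, beside 25.9%. Between the 2 knockouts 1 of the 8 members other than ctsb was called, ctsk, as lower in the kdm4aa knockout, beside 18.2% of all genes, 8.81% higher and 9.39% lower, and the median log2 difference of the 8 was −0.14. Without kdm4ab knockout replicate 2, 3 of the 8 were called higher and 3 lower in the kdm4aa knockout, beside 52.8% of all genes, 26.0% higher and 26.8% lower. The kdm4aa knockout lay wholly above the kdm4ab knockout for 1 of the 8, beside 23.6% of all genes, and wholly below it for 3, beside 16.8%. Both contrasts with wild type share the same 3 wild-type libraries. ctsb was the only one of the 9 whose kdm4aa knockout libraries lay below those of wild type without overlap.

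The CPM of the 8 members other than ctsb summed to 3717, 3148 and 3528 in the kdm4aa knockout, to 2371, 4016 and 2492 in the kdm4ab knockout and to 2656, 2436 and 2535 in wild type. With ctsb added, the sums averaged 3464 ± 290 in the kdm4aa knockout, 4094 ± 1189 in the kdm4ab knockout and 3605 ± 80.2 in wild type (SD, n = 3 each). By library these sums were 3374, 5467 and 3441 in the kdm4ab knockout and 3690, 3531 and 3592 in wild type. The higher mean of the kdm4ab knockout thus came from replicate 2, and its replicates 1 and 3 lay below all of wild type. ctsla is the largest part of each sum without ctsb, and a longer transcript gives more reads, so the sums are shares of reads and not of molecules.

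**Figure D3:**
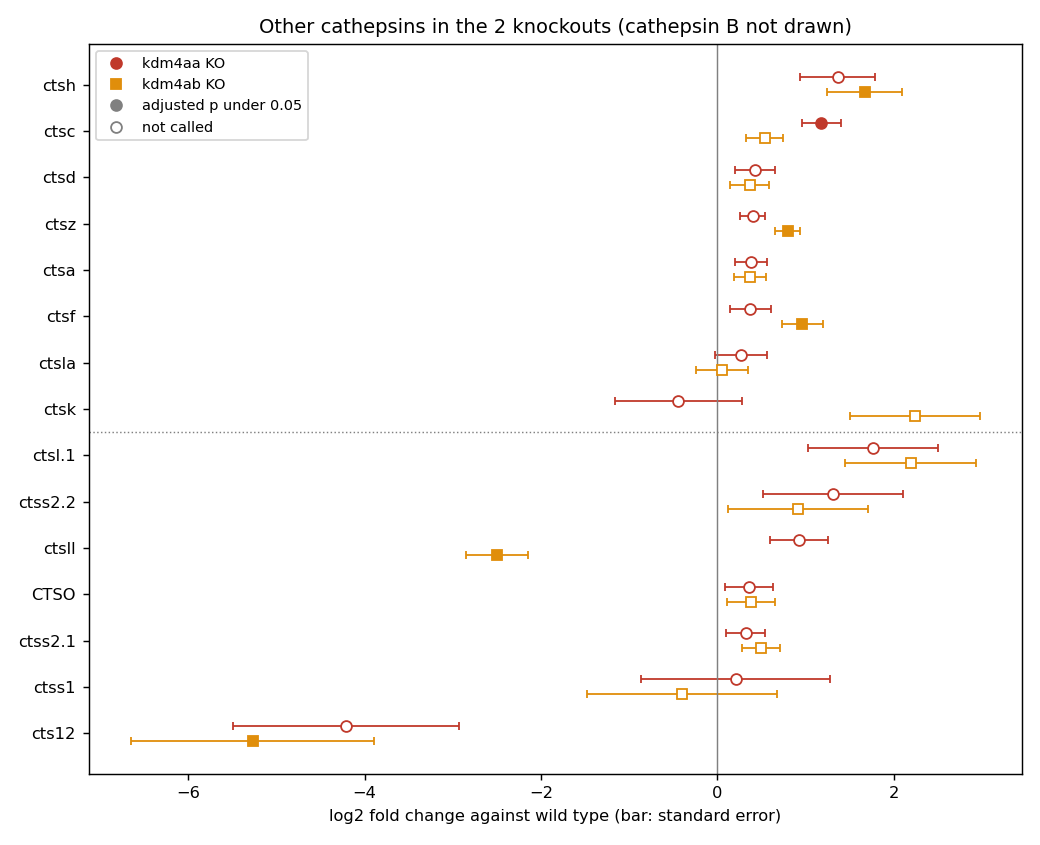
Fitted log2 difference from wild type of the other cathepsins, with the standard error as a bar, in the kdm4aa knockout (circle) and the kdm4ab knockout (square), from 3 libraries per group. Filled symbols are called at an adjusted p under 0.05, the dotted line parts the 8 members from the 7 further cathepsins tested, and in the kdm4aa knockout 1 symbol is filled, ctsc at 1.18.

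A further 10 genes carried a cathepsin symbol, and 7 of them could be tested. Cathepsin L-like genes under other symbols were not searched for. The second cathepsin B gene of zebrafish, ctsbb (ENSDARG00000101051), had 0 counts in all 9 libraries, as had ctslb and ctslb.4, so no ctsbb RNA was detectable at this depth in the embryos that lacked ctsb. Of the 7 tested, none was called in the kdm4aa knockout against wild type, with a median log2 difference of 0.36, and 2 were called lower in the kdm4ab knockout, ctsll and cts12, beside the 8.88% and 17.0% of all genes given above. With the 8 libraries other than kdm4ab knockout replicate 2, 4 of the 7 were called higher in the kdm4aa knockout (ctsll, ctss2.1, CTSO and ctsl.1) and 1 lower (cts12), beside 23.3% and 23.5% of all genes, and 2 were called higher and 2 lower in the kdm4ab knockout, beside 25.3% and 24.2%. The cathepsin S gene ctss2.1, of an endopeptidase used in antigen processing, was at 322, 317 and 292 CPM in the kdm4aa knockout against 229, 262 and 254 CPM in wild type (log2 0.32, SE 0.217, adjusted p 0.472, and 0.00285 without kdm4ab knockout replicate 2). CTSO, the gene of the cysteine protease cathepsin O, was at 21.2, 24.2 and 27.9 CPM in the kdm4aa knockout against 17.6, 21.7 and 17.8 CPM in wild type (log2 0.36, adjusted p 0.536, and 0.025 without kdm4ab knockout replicate 2), and those groups overlapped. ctsl.1, ctss2.2 and ctss1 were barely counted, with at most 0.974, 0.405 and 0.449 CPM in any library.

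ctsll, named as cathepsin L-like, differed most between the knockouts among these genes. It was at 22.9, 15.3 and 23.4 CPM in the kdm4aa knockout, at 1.96, 2.62 and 1.14 CPM in the kdm4ab knockout and at 13.1, 9.11 and 10.2 CPM in wild type. The 3 groups did not overlap. ctsll fell in the kdm4ab knockout (log2 −2.50, SE 0.352, adjusted p 0.00274) and was higher in the kdm4aa knockout than in the kdm4ab knockout (log2 3.43, adjusted p 0.000786), both in all 14 alternatives. In the kdm4aa knockout its log2 difference from wild type was 0.93 (SE 0.332, adjusted p 0.141, and 0.000576 without kdm4ab knockout replicate 2). cts12 was counted 2, 2 and 0 times in the kdm4aa knockout, 0, 0 and 2 times in the kdm4ab knockout and 38, 40 and 13 times in wild type. In the kdm4aa knockout it was not called against wild type (adjusted p 0.0854, and 0.00237 without kdm4ab knockout replicate 2). Its call in the kdm4ab knockout (adjusted p 0.033) was kept by 5 of 14 alternatives, and it was lost without kdm4aa knockout replicate 1 or 2, kdm4ab knockout replicate 1 or any one wild-type library (0.0654 to 0.116).

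The position of ctsb was set by gene order, with ctsb, kdm4aa and kdm4ab on 3 different chromosomes, 17, 6 and 2, in RefSeq's zebrafish genes. The nearest 3 tested genes with a matching symbol were taken on either side of ctsb (xkr5b, gcfc2 and ywhaqb on one, cenpf, dnajc27 and si:ch211-132f19.7 on the other). On the first side 3 genes were passed over, and on the other 2 before cenpf and 13 before dnajc27. Tested genes under another symbol may therefore lie closer. Of the genes taken, 2 were called lower in the kdm4aa knockout and none higher, beside 4.55% and 4.33% of all genes. ywhaqb, a 14-3-3 adaptor protein gene, was at 32.9, 30.9 and 31.3 CPM in the kdm4aa knockout against 55.9, 59.1 and 59.2 CPM in wild type (log2 −0.87, adjusted p 0.00532). dnajc27, a gene of the DnaJ family, was at 19.9, 21.6 and 19.5 CPM in the kdm4aa knockout against 40.9, 46.2 and 46.8 CPM in wild type (log2 −1.13, adjusted p 0.00404). All 14 alternatives kept both calls. In the kdm4ab knockout ywhaqb also lay wholly below wild type (log2 −0.28, adjusted p 0.175, and 0.0307 without kdm4ab knockout replicate 2). There dnajc27 overlapped wild type (log2 −0.09, adjusted p 0.739). cenpf, a centromere protein gene, was at 125, 148 and 166 CPM in the kdm4aa knockout against 303, 249 and 273 CPM in wild type, with no overlap, and was not called with all 9 libraries (log2 −0.91, adjusted p 0.393) but was without kdm4ab knockout replicate 2 (adjusted p 8.66e-07). xkr5b, gcfc2 and si:ch211-132f19.7 were not called (adjusted p 0.854, 0.831 and 0.933).

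Cathepsins are processed and held in check by other genes, which were taken as lists. The lists were chosen with earlier results of these data known, so the counts called in them are a description. The first list held legumain and protease inhibitors, with serpins beside cystatins, so it is not of cysteine protease inhibitors alone. Of its 10 tested genes, 1 was called higher and none lower in the kdm4aa knockout, with a median log2 difference of 0.29. In the kdm4ab knockout 3 were called higher and 3 lower, with a median of 0.50. The gene called in the kdm4aa knockout was LGMN (ENSDARG00000039150), legumain, the lysosomal asparaginyl endopeptidase that cuts precursors of cathepsins B, H and L in mammals. LGMN was at 271, 264 and 288 CPM in the kdm4aa knockout, at 325, 486 and 323 CPM in the kdm4ab knockout and at 160, 160 and 166 CPM in wild type. Both knockouts lay wholly above wild type. It rose by a log2 value of 0.76 in the kdm4aa knockout (SE 0.171, adjusted p 0.0293) and in the kdm4ab knockout (log2 1.23, adjusted p 0.00277), and the knockouts were not called different with all 9 libraries (log2 −0.46, adjusted p 0.0987) but were without kdm4ab knockout replicate 2 (log2 −0.24, adjusted p 0.0158).

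**Figure D4:**
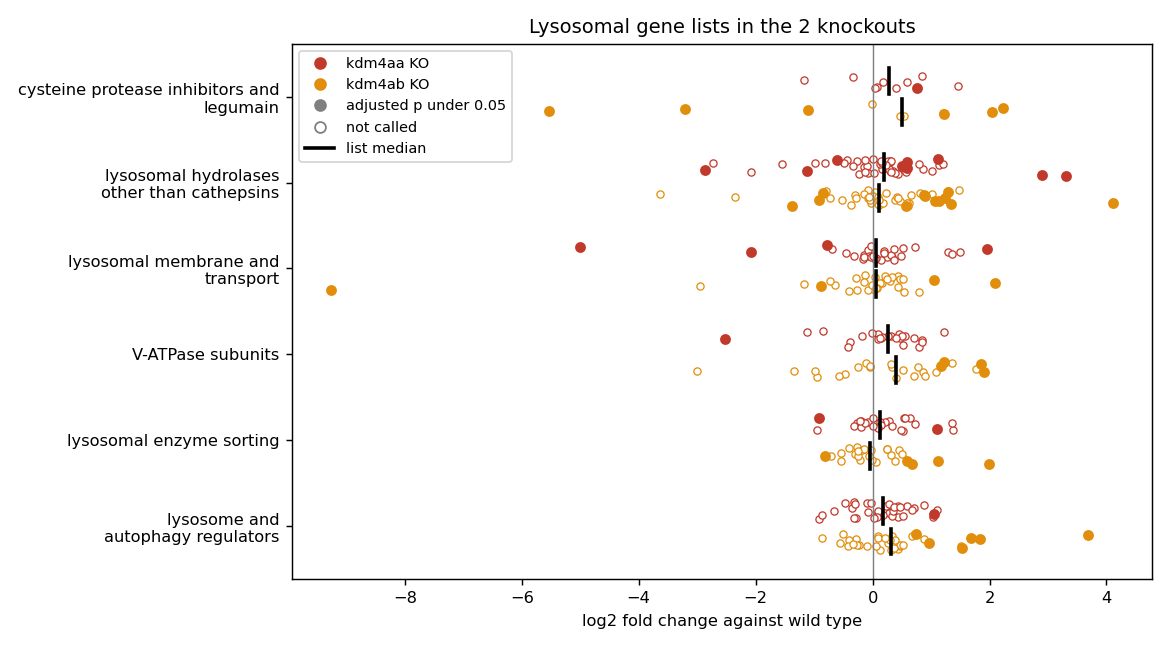
Fitted log2 difference from wild type of every tested gene of 6 lysosomal lists, 1 row of points per list and knockout, with the kdm4aa knockout above the kdm4ab knockout. Filled points are called at an adjusted p under 0.05 and the black bars are list medians, which lie between 0.05 and 0.29 in the kdm4aa knockout. The fitted value of a gene with no count in a group, such as the lowest point, is not a bound.

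Among 49 tested lysosomal hydrolases other than cathepsins, 6 were called higher and 3 lower in the kdm4aa knockout (median log2 0.19), and 9 higher and 3 lower in the kdm4ab knockout (median 0.10). LIPA (ENSDARG00000018529), the acid lipase that splits cholesteryl esters and triglycerides, was at 26.0, 24.8 and 22.7 CPM in the kdm4aa knockout, at 4.58, 3.40 and 5.84 CPM in the kdm4ab knockout and at 2.14, 2.59 and 2.70 CPM in wild type. LIPA rose by a log2 value of 3.30 in the kdm4aa knockout (SE 0.267, adjusted p 0.000427) and was higher there than in the kdm4ab knockout (log2 2.41, adjusted p 0.000788), both in all 14 alternatives. It was also called higher in the kdm4ab knockout than in wild type (log2 0.89, adjusted p 0.041), a call that 3 of 14 alternatives kept.

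ARSA, arylsulfatase A, which degrades sulfatides, was at 7.44, 7.13 and 8.65 CPM in the kdm4aa knockout, at 17.0, 12.6 and 17.9 CPM in the kdm4ab knockout and at 16.7, 17.96 and 15.8 CPM in wild type (log2 −1.12 against wild type, adjusted p 0.0137). ARSA fell, and DPP7, a dipeptidyl peptidase, was also lower in the kdm4aa knockout, at 0.405, 0.120 and 0.266 CPM against 2.42, 1.53 and 1.91 CPM in wild type (log2 −2.87, adjusted p 0.0244).

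Of 31 tested genes of the lysosomal membrane, 1 was called higher and 3 lower in the kdm4aa knockout (median log2 0.05), and 2 higher and 2 lower in the kdm4ab knockout (median 0.06). SLC15A4, a transporter of histidine and oligopeptides out of the lysosome, was at 20.7, 17.1 and 25.0 CPM in the kdm4aa knockout, at 81.1, 92.0 and 95.7 CPM in the kdm4ab knockout and at 97.4, 80.6 and 89.3 CPM in wild type. It fell by 2.09 on the log2 scale in the kdm4aa knockout (SE 0.177 with an adjusted p of 0.000488), and the knockouts differed by −2.095 (adjusted p 0.000276), both in all 14 alternatives. cln6a rose in both knockouts, by 1.95 in the kdm4aa knockout (adjusted p 0.0159) and 2.099 in the kdm4ab knockout (adjusted p 0.00779), both as log2 values. The amino acid transporter SLC36A1 showed a log2 difference of −0.77 in the kdm4aa knockout (adjusted p 0.0357). NPC2 (ENSDARG00000096979), named for a cholesterol-binding protein of the lysosome, was at 0.0579, 0.120 and 0 CPM in the kdm4aa knockout, at 0 in all 3 kdm4ab knockout libraries and at 1.94, 1.84 and 2.08 CPM in wild type (adjusted p 0.039 in the kdm4aa knockout against wild type). A second and far more counted NPC2 gene (ENSDARG00000090912) was at 595, 529 and 581 CPM in the kdm4aa knockout against 558, 551 and 583 CPM in wild type, and the groups overlapped (log2 0.01, adjusted p 0.993).

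The proton pump that acidifies the lysosome, the V-ATPase, had 25 tested subunit genes, of which none was called higher and 1 lower in the kdm4aa knockout (median log2 0.27), and 4 higher and none lower in the kdm4ab knockout (median 0.41). The one that fell was ATP6V0A1 (ENSDARG00000015174), a large membrane subunit, at 1.51, 1.47 and 1.21 CPM in the kdm4aa knockout, at 10.3, 4.10 and 9.16 CPM in the kdm4ab knockout and at 7.84, 8.62 and 7.78 CPM in wild type (log2 −2.53, adjusted p 0.00519). A second gene with the same symbol (ENSDARG00000020847) was at 51.7, 44.5 and 52.2 CPM in the kdm4aa knockout against 35.2, 43.8 and 39.8 CPM in wild type, so it lay in the other direction (log2 0.32, adjusted p 0.604, and 0.0161 without kdm4ab knockout replicate 2).

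Of 26 tested genes that sort enzymes to the lysosome, 1 was called higher and 1 lower in the kdm4aa knockout (median log2 0.13). VPS26A, a subunit of retromer, which returns sorting receptors from the endosome, was at 97.8, 75.6 and 91.4 CPM in the kdm4aa knockout, at 63.4, 65.7 and 58.3 CPM in the kdm4ab knockout and at 36.8, 47.8 and 39.4 CPM in wild type (log2 1.09, adjusted p 0.00493 against wild type in the kdm4aa knockout). GGA3 (ENSDARG00000098871), an adaptor at the trans-Golgi network, was lower there, with a log2 difference of −0.92 (adjusted p 0.0164), while a second GGA3 gene (ENSDARG00000103667) showed 0.54 (adjusted p 0.335, and 0.0292 without kdm4ab knockout replicate 2), and 4 of the 26 were called higher and 1 lower in the kdm4ab knockout. Of 35 tested regulators of lysosomes and autophagy, 1 was called higher and none lower in the kdm4aa knockout (median log2 0.18), and 6 higher and none lower in the kdm4ab knockout (median 0.32). The gene called in the kdm4aa knockout was FLCN, folliculin, which acts in nutrient signalling at the lysosome, at 19.4, 22.7 and 21.3 CPM in the kdm4aa knockout, at 20.8, 13.8 and 16.6 CPM in the kdm4ab knockout and at 9.68, 11.5 and 9.53 CPM in wild type (log2 1.04, adjusted p 0.018). VPS26A and FLCN were also called higher in the kdm4ab knockout than in wild type, calls that 4 and 3 of 14 alternatives kept.

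The kdm4aa knockout calls of LIPA, SLC15A4, ATP6V0A1 and VPS26A held in all 14 alternatives. Those of LGMN, ARSA, DPP7, NPC2, GGA3 and FLCN were lost when any one of the kdm4aa knockout or wild-type libraries was left out (0.053 to 0.18), that of SLC36A1 also without kdm4ab knockout replicate 1 (0.0591), and that of cln6a without kdm4aa knockout replicate 1 or 3 or any one wild-type library (0.0637 to 0.0874). All of the calls lost in this way were also lost with the replicate block (adjusted p 0.0525 to 0.137). They were kept without kdm4ab knockout replicate 2, with adjusted p from 1.35e-07 for LGMN to 0.000111 for SLC36A1. The members of these lists moved in both directions. Next to all genes tested, of which 8.88% were called in this contrast, the lists hold 1 of 10 inhibitors and legumain, 9 of 49 hydrolases, 4 of 31 membrane genes, 1 of 25 V-ATPase subunits, 2 of 26 sorting genes and 1 of 35 regulators called in either direction. In the kdm4ab knockout against wild type, where 17.0% of all genes were called, the counts were 6 of 10, 12 of 49, 4 of 31, 4 of 25, 5 of 26 and 6 of 35 in the same lists. With the 8 libraries other than kdm4ab knockout replicate 2, the kdm4aa knockout calls were 3 higher and 1 lower of 10 inhibitors and legumain, 19 and 12 of 50 hydrolases, 10 and 6 of 31 membrane genes, 12 and 2 of 26 V-ATPase subunits, 11 and 4 of 26 sorting genes, and 11 and 7 of 35 regulators, beside 23.3% of all genes higher and 23.5% lower.

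**Figure D5:**
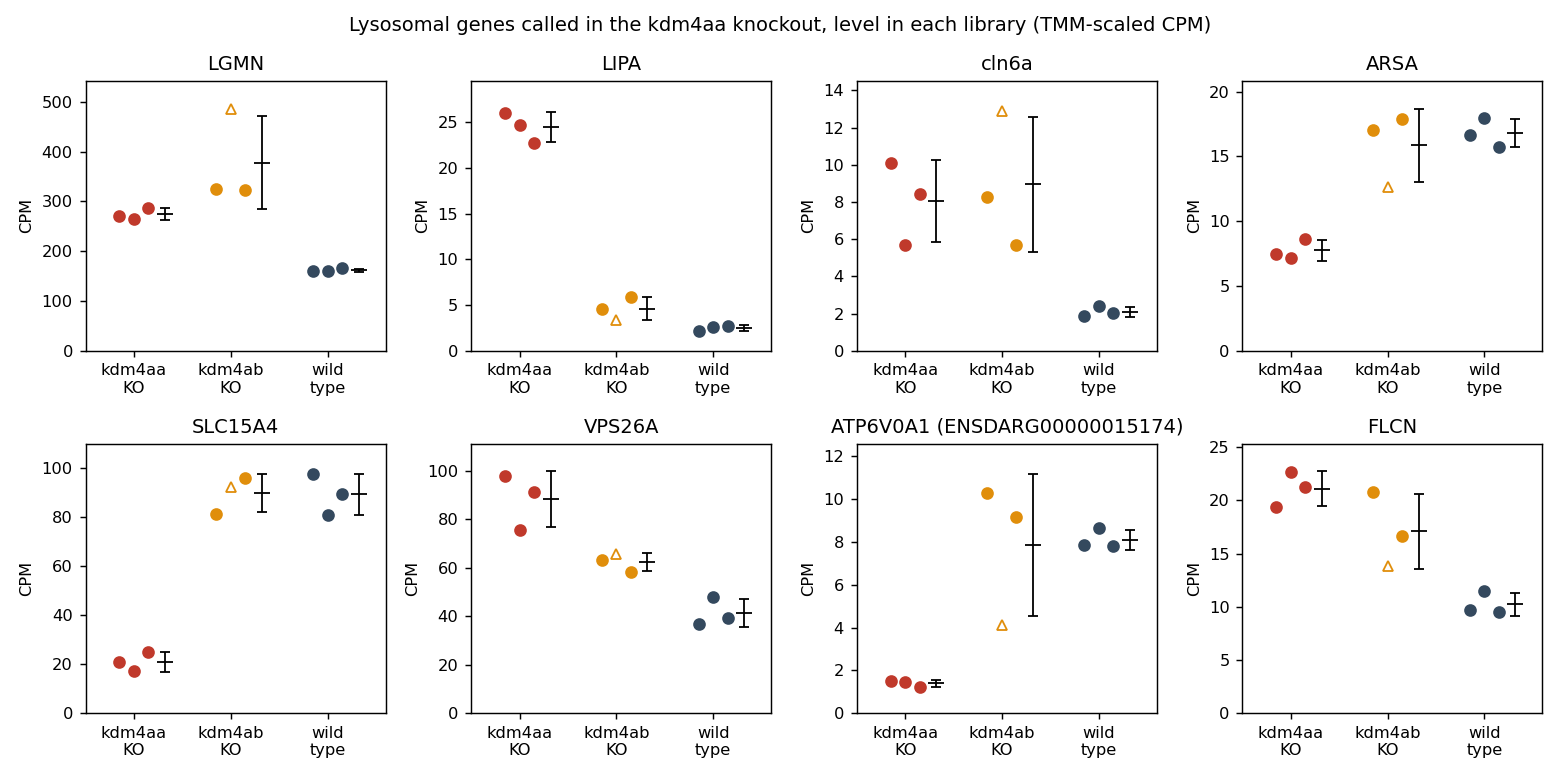
Level in every library of 8 lysosomal genes called in the kdm4aa knockout, in CPM on a linear axis from 0, with the kdm4aa knockout left, the kdm4ab knockout in the middle and wild type right. Points are libraries, the open triangle is kdm4ab knockout replicate 2 and the bars are the mean ± SD of 3 libraries; LIPA is higher in the kdm4aa knockout than in all 6 other libraries, and SLC15A4, ARSA and ATP6V0A1 are lower.

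Markers of cell types that are rich in cathepsins or that change with the age of the embryo were read beside these values. Macrophage markers were near the limit of counting, with a summed level of 3.55 to 4.94 CPM in the kdm4aa knockout, 2.18 to 4.23 CPM in the kdm4ab knockout and 7.32 to 9.70 CPM in wild type, and 1 of 6 tested was called lower in the kdm4aa knockout, an MFAP4 gene. In the kdm4ab knockout 1 of the 6 was called lower as well. The 7 matched macrophage names stand for 14 genes, several of them MFAP4, so the 6 tested need not be 6 separate markers. The hatching gland markers ctslb and he1.2 had no count in any library, and of the 2 tested none was called. Yolk syncytial layer markers summed to 77.4 to 127 CPM in the kdm4aa knockout, 53.4 to 63.2 CPM in the kdm4ab knockout and 85.2 to 127 CPM in wild type, with 0 of 4 called in the kdm4aa knockout and 2 called lower in the kdm4ab knockout. Enveloping layer and periderm markers summed to 164 to 187 CPM in the kdm4aa knockout, 77.6 to 113 CPM in the kdm4ab knockout and 340 to 389 CPM in wild type, with 2 of 5 called lower in the kdm4aa knockout and 4 in the kdm4ab knockout, beside 4.55% and 8.04% of all genes called lower in those contrasts. When kdm4ab knockout replicate 2 was left out, 6 of 6 were called lower in the kdm4aa knockout and 5 of 6 in the kdm4ab knockout, beside 23.5% and 24.2% of all genes. Of these, krt4, a keratin of the outer layer, was at 79.9, 94.7 and 87.2 CPM in the kdm4aa knockout, at 11.3, 9.62 and 5.65 CPM in the kdm4ab knockout and at 198, 154 and 196 CPM in wild type. Notochord markers gave 0 of 4 called in the kdm4aa knockout and 2 called lower in the kdm4ab knockout, and without kdm4ab knockout replicate 2 they gave 3 of 5 called lower in the kdm4aa knockout and 2 in the kdm4ab knockout. Without that library 3 of 6 macrophage markers were called lower and 1 higher in the kdm4aa knockout, and no yolk syncytial layer marker was called there. In the kdm4ab knockout 2 of 6 macrophage markers were then called lower and 1 higher. Of 5 yolk syncytial layer markers 3 were called lower there, and of 2 hatching gland markers 1, beside the shares of all genes given above. The part of these differences in the levels of the cathepsins was not tested.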

How the data were processed

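Whole embryos of 3 genotypes were sequenced, 3 libraries each, as poly-A RNA, per the labels' protocols. The authors deposited 1 table of raw counts per Ensembl gene and library. The submitters' processing notes name the builds GRCz11 and danRer11. No source used here names the aligner, counter, annotation or strand setting. Reads of near-identical or overlapping genes may be split in unknown ways. Symbols were matched by identifier for 29201 of 32520 genes. Of these 32520, 5076 had no count.

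Counts were filtered (filterByExpr), TMM-scaled and tested in R 4.3.3 with edgeR 4.0.16 by the quasi-likelihood F-test, with 1 mean per group and all 9 libraries. P-values are two-sided and Benjamini-Hochberg adjusted. SE is the absolute log2 value over the square root of F. Spread between replicates exceeded counting noise (chi-square of at least 9.58 per gene). Alternatives were other size factors (RLE), no filter, DESeq2 1.42.0, only the 6 libraries compared, a replicate block and leaving out each library.

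The members and lists were chosen with earlier results of these data known. The text names the members, all tested cathepsin symbols and up to 4 genes per list with the smallest p in the kdm4aa knockout. It also names the 5 genes most like ctsb and its nearest 3 tested neighbours per side with a matching symbol. A gene that this rule takes, though counted, is not reported here. Neighbours and chromosomes come from RefSeq's gene order on GRCz12tu, matched by symbol, and no coordinates of that build are used. No transcript lengths or sequences were used, so sums, rankings and cutoffs over genes rest on rates of counts and not of molecules.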

Additional observations from a re-analysis of the deposited data

Results flagged for a closer look

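Both knockouts were set against the same wild-type libraries, and for 2 cathepsins the test of the difference between the knockouts passed the threshold. These were 1 of the 8 members other than ctsb and 1 of the 7 further cathepsins tested, beside 18.2% of all genes. For ctsk the log2 difference of the kdm4aa knockout over the kdm4ab knockout was −2.68, with 0.145 to 1.13 CPM in the kdm4aa knockout and 2.97 to 6.66 CPM in the kdm4ab knockout (edgeR, adjusted p 0.0415, kept in 3 of 14 alternatives). For ctsll it was 3.43, with 15.3 to 23.4 CPM in the kdm4aa knockout and 1.14 to 2.62 CPM in the kdm4ab knockout (adjusted p 0.000786, kept in all 14).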

How the results depend on the processing

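At 6 to 198 counts per library for ctsk and 0 to 40 for cts12, these 2 were among the least counted of the genes named. Of 937 values over 67 single-gene results and 14 alternatives, 744 kept direction and side of the threshold, 139 lost the call, 40 gained one and 14 changed sign. The 744 include 14 values of ctsb in each of the 2 contrasts with the kdm4aa knockout, which carry no test and kept direction and size. A change of sign was counted before a change of call, and ctsla without kdm4ab knockout replicate 2 had both (adjusted p 0.000261). The sign changes were ctsk in the kdm4aa knockout against wild type without kdm4aa knockout replicate 3 (0.0477), and the more counted NPC2 gene with RLE size factors (−0.0193), by DESeq2 (−0.0195) and without kdm4aa knockout replicate 1 (−0.0217) or wild-type replicate 2 (−0.0065); in the kdm4ab knockout against wild type, ctsla under the replicate block (−0.0155) and without kdm4ab knockout replicate 2 (−0.4366), and ctsb without that library (−0.1187); and, between the knockouts, ctsa without kdm4aa knockout replicate 1 (−0.0328) or 3 (−0.0412) or kdm4ab knockout replicate 1 (−0.0873) or 3 (−0.0286), and ctsd without kdm4ab knockout replicate 1 (−0.0775) or 3 (−0.0339). The cause was not tested. With 1 library left out, these 6 log2 differences ran from −1.0107 to 0.0477 for ctsk, from −0.0217 to 0.0576 for NPC2, from −0.4366 to 0.2241 for ctsla, from −0.1187 to 0.1852 for ctsb, from −0.0873 to 0.2111 for ctsa and from −0.0775 to 0.3863 for ctsd.

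In the kdm4aa knockout against wild type 1687 genes were called, 3020 by DESeq2, 9290 with only the 6 libraries compared, 765 with the replicate block and 569 to 9306 with 1 library left out. In the kdm4ab knockout against wild type these were 3232, 5229, 1092, 1807 and 1219 to 9848, and between the knockouts 3457, 5359, 1259, 2012 and 1462 to 10499. Cathepsin members called were 1 in the kdm4aa knockout against wild type, 2 by DESeq2, 6 with only the 6 libraries and 0 to 7 with 1 left out. In the kdm4ab knockout they were 3, 1 with only the 6 libraries, 1 with the block and 1 to 6 with 1 left out. Between the knockouts they were 1, 2 by DESeq2, 0 with no filter, with only the 6 libraries and with the block, and 0 to 6 with 1 left out. Same-numbered libraries deviated from their group means with correlations of −0.048 to 0.084. Libraries of different numbers were not compared in this way, so these values do not decide whether the numbers pair the samples. The median of all genes in the kdm4ab knockout against wild type moved from −0.029 to −0.101 with no filter, −0.13 by DESeq2 and −0.12 with the block. It was −0.163 without kdm4ab knockout replicate 1, −0.158 without its replicate 3 and 0.008 without its replicate 2.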
